A study of Mus musculus with 10 samples.

Results

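The 10 genes described here mark the formation of somites, the paired blocks of mesoderm along the embryonic axis, and their first differentiation. They were taken by name (Mesp2, Hes7, Lfng, Dll3, Ripply2, Meox1, Tcf15, Pax3, Uncx and Pax1) from the 46955 rows of a gene expression table. Each name matched 1 row, and no measured value entered the choice. RNA was sequenced after depletion of ribosomal RNA from 10 mouse libraries on the C57BL/6 background, in a study of Strap, which encodes a WD40-repeat protein linked to splicing. Embryonic stem cells (ESCs), grown on feeder fibroblasts, gave 1 wild-type (WT) library and 1 library of homozygous Strap knockout (KO) cells, whose deletion was made with a zinc finger nuclease. Embryoid bodies (EBs) are aggregates that these cells form in suspension. They were taken at day 9, after culture first without LIF and then in N2B27 medium with bFGF, which directs cells to neuroectoderm, and gave 2 WT and 2 KO libraries. WT embryos, pooled for RNA, gave 2 libraries at embryonic day 8.0 (E8.0) and 2 at E9.0. In the table itself the E8.0 columns are named for a later stage, and here the label decides. No KO embryo was sequenced in these libraries, and the number of independent ESC lines behind the EB replicates is not given in the labels, so the p-values measure only the spread between these libraries.

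Somites bud in pairs from the front of the presomitic mesoderm. In each cycle of the segmentation clock Hes7, a transcriptional repressor, switches itself off with a delay, and Lfng, a glycosyltransferase that modifies Notch receptors, and Dll3, a divergent Notch ligand of the presomitic mesoderm, take part in the Notch arm of that clock. At the boundary Mesp2, a bHLH factor driven by Tbx6 and Notch, sets the position of the next somite, and Ripply2 then shuts Mesp2 and Tbx6 off. Meox1 and Tcf15 (Paraxis) act in the newly formed somite, in its identity and its epithelial form. Pax3 marks the dermomyotome, the source of skeletal muscle, and also the dorsal neural tube. Uncx marks the caudal part of each somite, and Pax1 marks the sclerotome, the source of vertebrae, and also the pharyngeal pouches.

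The upstream sequences of 3 of these genes are shown because their levels contrast between the embryo stages: Hes7 was lower at E9.0, Pax1 had the largest rise of the 10 genes, and Lfng, the other clock gene, changed little. Each line gives bases 250 to 51 before the RefSeq start on the plus strand of GRCm38.p6, for Hes7 at chr11:69120203-69120402, for Lfng at chr5:140607091-140607290 and for Pax1 at chr2:147364744-147364943. The Pax1 window precedes the RefSeq start but lies inside the longer GENCODE locus of the gene, outside its annotated exons. Capitals mark matches, on either strand, to the E-box CANNTG, the RBPJ motif TGGGAA, the T-box motif TCACAC or the N-box CACNAG, where N is any base.
Hes7: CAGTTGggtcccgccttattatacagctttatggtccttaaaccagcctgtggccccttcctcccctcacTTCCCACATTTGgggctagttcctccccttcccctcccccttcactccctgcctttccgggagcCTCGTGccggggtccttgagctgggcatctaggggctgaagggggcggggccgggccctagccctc
Lfng: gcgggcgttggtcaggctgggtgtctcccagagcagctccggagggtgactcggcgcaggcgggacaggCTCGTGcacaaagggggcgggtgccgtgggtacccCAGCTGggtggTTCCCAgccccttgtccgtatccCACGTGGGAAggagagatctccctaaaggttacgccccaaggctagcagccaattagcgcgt
Pax1: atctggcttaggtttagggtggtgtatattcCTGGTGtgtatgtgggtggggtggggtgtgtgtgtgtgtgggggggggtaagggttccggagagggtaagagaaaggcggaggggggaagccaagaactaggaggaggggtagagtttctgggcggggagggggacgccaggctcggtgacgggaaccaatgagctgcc

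The Hes7 window held 2 E-boxes, which start 250 and 174 bases before the RefSeq start, 1 RBPJ motif at 180 bases, which runs up to the second E-box, and 1 N-box at 116. The Lfng window held 2 E-boxes, at 146 and 112 bases, 2 RBPJ motifs, at 135 and 108 bases, and 1 N-box at 181. Its second RBPJ motif overlaps the second E-box by 2 bases. The Pax1 window held 1 N-box, at 219 bases. Among 32851 RefSeq windows of the same length, 59.0% held the E-box, 17.9% the RBPJ motif, 10.1% the T-box motif and 31.1% the N-box, so that single matches are common. RefSeq windows matched 7 of the 10 genes. Of those not printed, Ripply2 held 2 E-boxes and 1 T-box motif, Dll3 held 1 of each, and Mesp2 and Uncx held none of the 4 motifs. The Dll3 and Uncx windows overlap annotated GENCODE exons of their own genes. Meox1, Tcf15 and Pax3 were not matched. A match is a description of letters only.

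Levels are FPKM, fragments per unit of transcript length and per mapped fragment of each library, as the authors deposited them. These values are per length and can be compared between genes. The files hold no counts, so the depth is unknown and no counting interval can be given. A listed 0 can be a failed estimate, since the merged row with the mitochondrial ribosomal gene mt-Rnr2 is also listed at 0 in 3 of the 10 libraries. Strap had 68.7 FPKM in WT and 14.5 in KO ESCs, 49.7 and 47.2 in EBs of WT, 8.48 and 11.3 in those of KO genotype, and 82.7 to 98.5 in embryos. Between 12881 and 13886 rows reached 1 FPKM in a library. Replicates differed by a median of 0.25 (WT) and 0.27 (KO) log2 units in EBs and by 0.10 (E8.0) and 0.11 (E9.0) in embryos, so EBs were the noisier material. Summed markers of pluripotent cells were 2416 and 2285 FPKM in ESCs, 479 to 1977 in EBs and 27.8 to 35.7 in embryos, with 8 of 8 markers at 1 FPKM or more in every EB library. EBs therefore still held a pluripotent signal at day 9.

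Differences were tested with limma on log2(FPKM + 1), a scale that understates changes of low genes, with a separate variance for EBs and for embryos. A row was tested if 2 or more of the 8 libraries of EBs and embryos reached 1 FPKM, which left 15160 rows, and a call means a Benjamini-Hochberg adjusted p under 0.05 over all of them. Of the 10 genes, 8 passed this filter. Mesp2 reached 1 FPKM in no library and Ripply2 in 1. Hes7 passed through its E8.0 libraries alone and Uncx through its E9.0 libraries alone, so both passed only through the group where they were highest. The counts over the 8 tested genes below are descriptions for that reason.

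**Figure D1:**
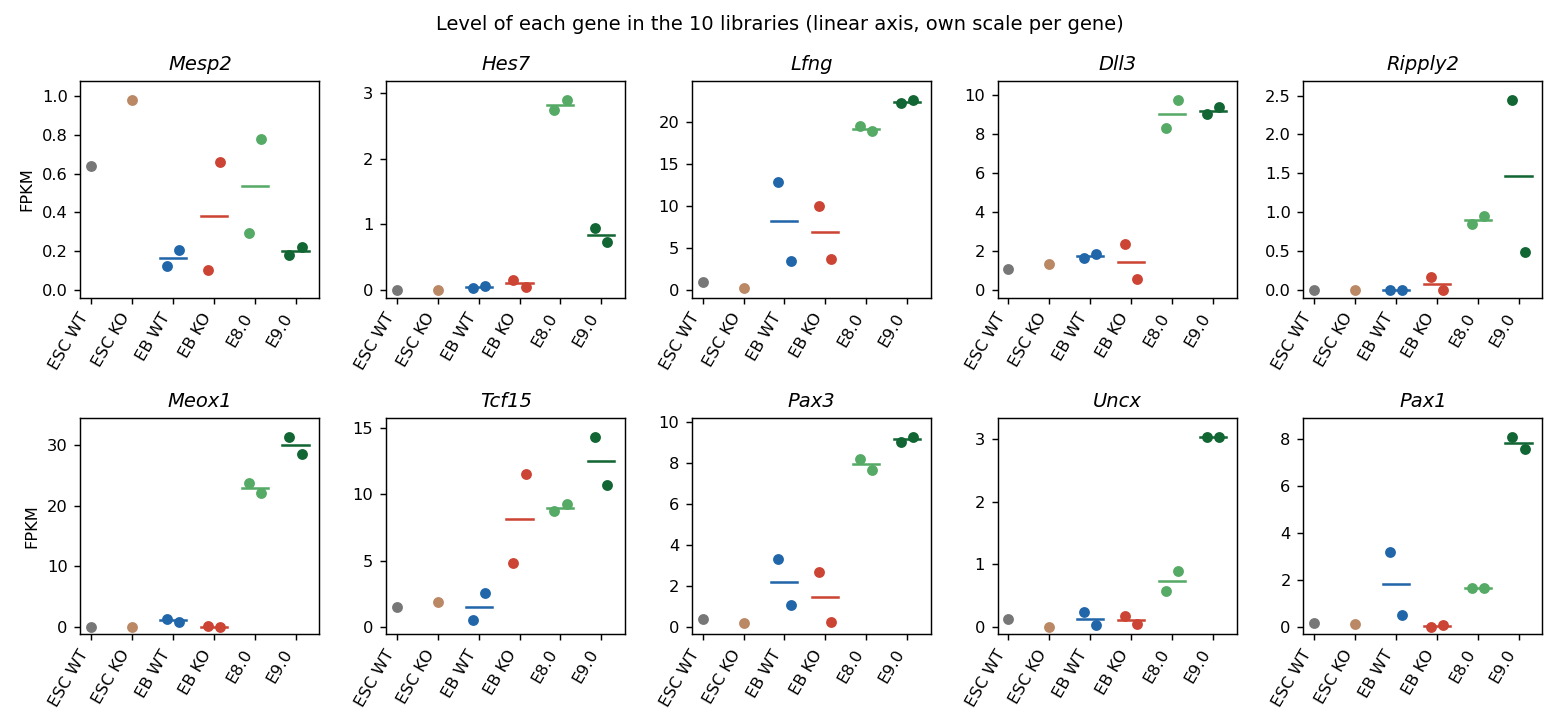
FPKM (linear axis, own scale for each gene) of the 10 genes in each library, with points for libraries and a line for the mean of each group of 2. Meox1, Dll3, Pax3, Lfng, Hes7, Uncx and Ripply2 separate the 4 embryo libraries from all ESC and EB libraries. Hes7 is highest at E8.0, and Mesp2 stays under 1 FPKM throughout.

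In the embryo, Meox1 and Lfng were the most abundant of the 10 genes at both stages. At E8.0 the group means ran from 22.9 ± 1.18 FPKM (SD, n = 2) for Meox1 and 19.2 ± 0.408 (SD, n = 2) for Lfng, over 9.02 ± 1.00 (SD, n = 2) for Dll3, 8.99 ± 0.391 (SD, n = 2) for Tcf15 and 7.92 ± 0.390 (SD, n = 2) for Pax3, down to 2.82 ± 0.104 (SD, n = 2) for Hes7 and 1.67 ± 0.0108 (SD, n = 2) for Pax1. The libraries of Dll3 and Tcf15 overlapped there. Ripply2, Uncx and Mesp2 closed the order below 1 FPKM, with overlapping libraries between Ripply2 and Uncx and between Uncx and Mesp2. At E9.0 Tcf15 came after these, the libraries of Pax3 lay within those of Dll3, and Pax1 had passed Hes7 and stood close below Pax3. Mesp2 had the lowest mean, 0.199 ± 0.0296 FPKM (SD, n = 2).

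From E8.0 to E9.0 Pax1, Uncx and Meox1 rose and the clock repressor Hes7 fell. These 3 were called higher at E9.0 and Hes7 was called lower, which is 3 and 1 of the 8 tested, against 13.7% of all tested rows called higher and 12% called lower. Lfng, Dll3, Tcf15 and Pax3 were not called. The comparison asks how expression moves from one embryonic stage to the next. The column names of the E8.0 and E9.0 libraries are of different series, whose meaning is not given. Stage and series therefore cannot be told apart.

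Hes7 (ENSMUSG00000023781.2, chromosome 11, 69120404 to 69124055, plus strand, GRCm38) had 2.75 and 2.89 FPKM at E8.0 and 0.947 and 0.736 at E9.0. Both E8.0 pools were above both E9.0 pools, a ratio of the means of 3.35. Its log2 change was -1.06 (SE 0.104, limma adjusted p = 0.000958). The call held in all 16 alternatives that tested this gene.

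Pax1 (ENSMUSG00000037034.16, chromosome 2, 147361925 to 147393295, plus strand) had 1.68 and 1.66 FPKM at E8.0 and 8.11 and 7.57 at E9.0. The stages did not overlap and the mean was 4.69-fold higher at E9.0. The log2 change was 1.73 (SE 0.191, limma adjusted p = 0.00136), and with equal weights for EBs and embryos its adjusted p was 0.0947. Uncx (ENSMUSG00000029546.12, chromosome 5, 139543494 to 139548179, plus strand) had 0.576 and 0.891 FPKM at E8.0 and 3.03 and 3.03 at E9.0. That is 4.14-fold higher at E9.0, with no overlap and a log2 change of 1.22 (SE 0.121, limma adjusted p = 0.000958).

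Meox1 (ENSMUSG00000001493.9, chromosome 11, 101877510 to 101894374, minus strand) had 23.7 and 22.1 FPKM at E8.0 and 31.4 and 28.6 at E9.0. The rise was small, 1.31-fold, with a log2 change of 0.37 (SE 0.0990, limma adjusted p = 0.0305). The call was lost in 7 of 17 alternatives, with an adjusted p of 0.0612 to 0.170 without any 1 of the 4 embryo libraries. Tcf15 (ENSMUSG00000068079.5, chromosome 2, 152143561 to 152149097, plus strand) had 8.71 and 9.26 FPKM at E8.0 and 14.3 and 10.7 at E9.0. The E9.0 pools were the higher, but they also differed most from each other, and the log2 change of 0.42 (SE 0.225, limma adjusted p = 0.207) was not called.

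The other tested genes, Lfng, Dll3 and Pax3, were not called. Lfng (ENSMUSG00000029570.5, chromosome 5, 140607320 to 140615545, plus strand) had 19.5 and 18.9 FPKM at E8.0 and 22.3 and 22.6 at E9.0. Although the pools did not overlap, the log2 change of 0.22 (95% interval -0.34 to 0.77, limma adjusted p = 0.542) was not called. Dll3 (ENSMUSG00000003436.11, chromosome 7, 28293553 to 28302238, minus strand) had 8.31 and 9.73 FPKM at E8.0 and 9.02 and 9.37 at E9.0. Its stages overlapped, and the interval of the log2 change ran from -0.35 to 0.40 around 0.03, a sign that turned with quantile normalization and with median scaling. Pax3 (ENSMUSG00000004872.15, chromosome 1, 78101267 to 78197134, minus strand) had 8.20 and 7.65 FPKM at E8.0 and 9.04 and 9.27 at E9.0. The E9.0 pools were slightly higher, with a log2 change of 0.19 (95% interval -0.35 to 0.73, limma adjusted p = 0.590).

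The boundary genes were low in every library. Mesp2 (ENSMUSG00000030543.10, chromosome 7, 79810727 to 79813439, plus strand) had 0.296 and 0.776 FPKM at E8.0 and 0.178 and 0.220 at E9.0. Its highest value in the series, 0.978, was in the KO ESC library, followed by 0.776 in the second E8.0 pool. At such low levels, with the E8.0 pools so far apart, this order does not place its highest level. Ripply2 (ENSMUSG00000047897.10, chromosome 9, 87015537 to 87019917, plus strand) had 0.844 and 0.954 FPKM at E8.0 and 2.44 and 0.487 at E9.0. The E9.0 pools lay on either side of both E8.0 pools. Neither gene was tested with the filter. Without it, the limma log2 change was -0.34 for Mesp2 (adjusted p = 0.242) and 0.25 for Ripply2 (adjusted p = 0.764).

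Of the 8 tested genes, 6 had E9.0 libraries all above the E8.0 libraries (Lfng, Meox1, Tcf15, Pax3, Uncx and Pax1) and 1, Hes7, had them all below. The same held for 33.2% and 33% of all tested rows. In whole-embryo pools, fewer cells of a type and less RNA per cell cannot be told apart. Other tissues moved between the stages as well: summed markers of erythroid cells were 882 and 2070 FPKM at E8.0 and 11270 and 7322 at E9.0 (6 of 6 called higher), and those of yolk sac endoderm were 538 and 877 at E8.0 and 44.4 and 20.1 at E9.0 (7 of 7 called lower). Their part in the results was not tested.

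Levels were also set relative to Meox1 within the same library, which removes any scaling common to all genes of that library. Hes7 was 0.116 and 0.131 of the Meox1 level at E8.0 and 0.0302 and 0.0257 at E9.0. Pax1 was 0.0707 and 0.0753 at E8.0 and 0.259 and 0.265 at E9.0, and Uncx was 0.0243 and 0.0404 at E8.0 and 0.0967 and 0.106 at E9.0. Lfng stayed between 0.710 and 0.857, Dll3 between 0.288 and 0.441, Tcf15 between 0.367 and 0.457 and Pax3 between 0.288 and 0.347 over the 4 pools. Of these, Lfng, Dll3 and Pax3 were lower in both E9.0 pools than in both E8.0 pools. Meox1, the divisor, was itself called higher at E9.0, at 1.31-fold. The FPKM means of Lfng, Dll3 and Pax3 did not fall, with E9.0 to E8.0 ratios of 1.17, 1.02 and 1.16. Relative to Meox1, Hes7, Pax1 and Uncx thus changed the most, with Hes7 in the opposite direction to Pax1 and Uncx.

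**Figure D2:**
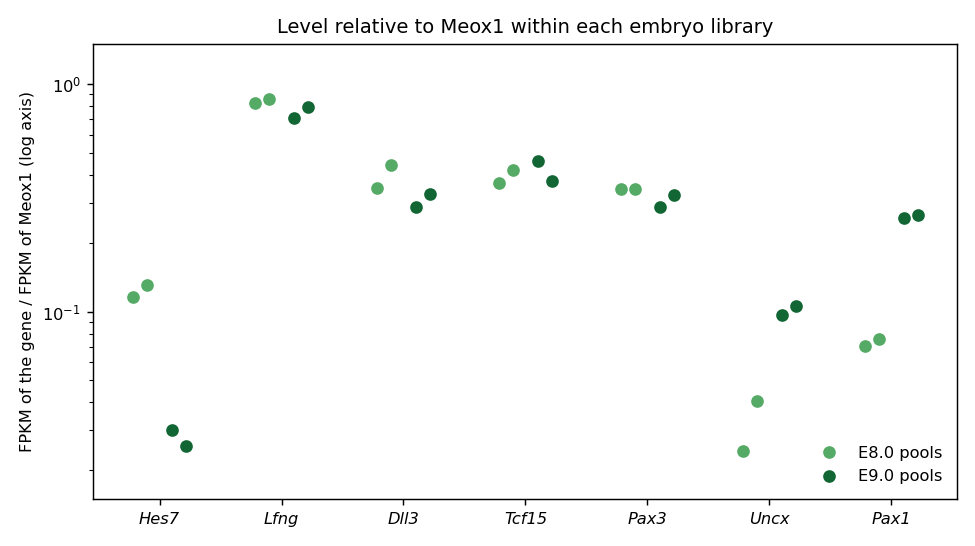
FPKM of 7 genes divided by that of Meox1 in the same embryo library (log axis), with light points for the 2 E8.0 pools and dark points for the 2 E9.0 pools. Hes7 drops from 0.116 and 0.131 to 0.0302 and 0.0257, and Pax1 and Uncx rise. The other 4 genes change less. Of them, Lfng, Dll3 and Pax3 lie lower in both E9.0 pools than in both E8.0 pools, while Meox1, the divisor, rose 1.31-fold.

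Related genes from lists of the pathway and of the somite's parts were read beside these. In the list of presomitic mesoderm and the FGF/WNT clock, 10 of 23 tested genes were called lower at E9.0 and 2 higher, with a median log2 change of -0.50 against 0.00 over all tested rows. These counts and those of the next lists stand beside 13.7% of all tested rows called higher and 12% called lower. Brachyury (T), which marks posterior mesoderm progenitors, had 29.6 and 22.5 FPKM at E8.0 and 6.80 and 5.82 at E9.0, a log2 change of -1.88 (limma adjusted p = 0.00178). Tbx6, the presomitic factor upstream of Mesp2, had 4.88 and 4.97 FPKM at E8.0 and 1.86 and 1.90 at E9.0. Its log2 change was -1.04 (limma adjusted p = 0.000668). The phosphatase Dusp4 fell by 0.94 on the log2 scale, while Tbx18, a gene of the rostral somite compartment, rose by 1.17. Hes7 therefore moved in the direction of most of the called genes of this list, with Msgn1 at 10.2 and 9.84 FPKM at E8.0 and 5.99 and 3.41 at E9.0 as a further example chosen after its values were seen.

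Of the 17 tested genes of the Notch list 7 were called higher at E9.0, 1 was called lower and 9 were not called, with a median log2 change of 0.19. The target Heyl had 0.213 and 0.392 FPKM at E8.0 and 3.39 and 3.14 at E9.0, Hes6 rose by 1.04 and Mfng, a paralog of Lfng, rose by 1.00 on the log2 scale, and the receptor Notch1 by 0.61. These genes also act in the nervous system and vessels, and summed markers of neural progenitors were 82.7 and 82.4 FPKM at E8.0 and 162 and 162 at E9.0, whose part was not tested. Heyl reached 1 FPKM only in the E9.0 libraries. It thus passed the filter only through the group where it was highest, and the count of this list is a description.

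In the sclerotome list 3 of 12 tested genes were called higher and 0 lower, with a median of 0.49. The called genes were Nkx3-2, a factor that acts with Pax1 in the sclerotome (0.268 and 0.167 FPKM at E8.0, 1.37 and 1.18 at E9.0), Tbx15 and Sox5, with log2 changes of 0.90, 0.79 and 0.77. Summed markers of feeder fibroblasts, many of them genes of mesenchyme in general, were 135 and 179 FPKM at E8.0 and 714 and 758 at E9.0, with 9 of 11 called higher, and their part in the sclerotome values was not tested. In the dermomyotome and myotome list 5 of 13 tested genes were called higher and 1, En1, lower, with a median of 0.27. Myogenin (Myog), which drives terminal muscle differentiation, had 0.0493 and 0 FPKM at E8.0 and 2.46 and 2.2 at E9.0. Alx4 rose by 1.92, Meox2 by 0.84 and the early muscle factor Myf5 by 0.66 on the log2 scale. Alx4 and Meox2 are also expressed in limb mesenchyme. Nkx3-2, Myog and Myf5 reached 1 FPKM only in the E9.0 libraries, so they passed the filter only through the group where they were highest. The counts of both lists are descriptions for that reason.

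**Figure D3:**
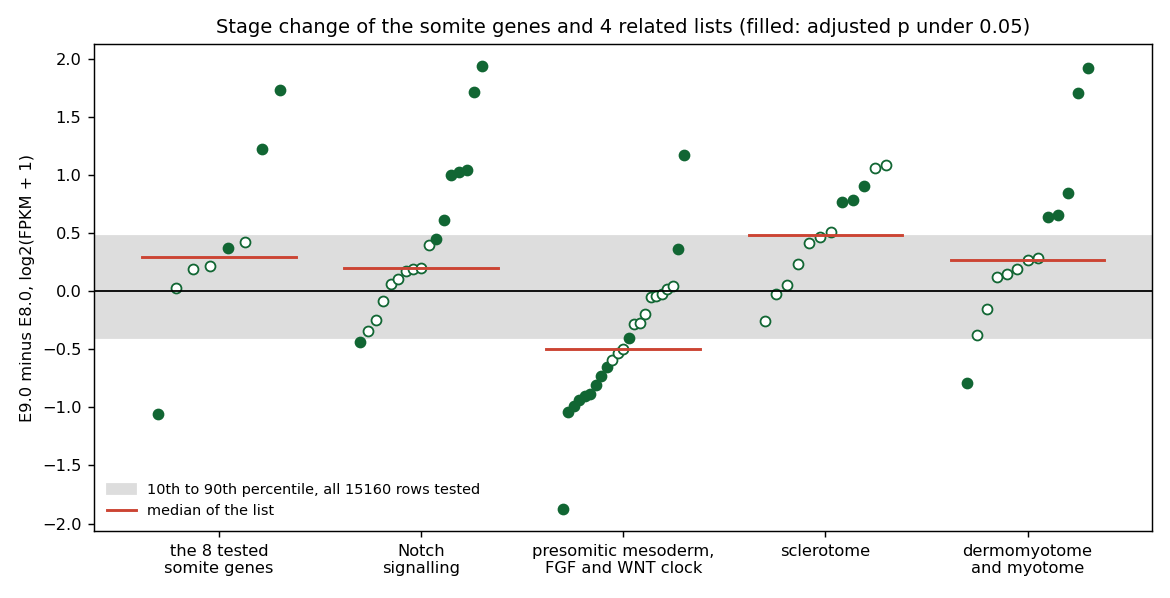
Change in log2(FPKM + 1) from E8.0 to E9.0 for the 8 tested somite genes and the tested genes of 4 related lists, with filled points for calls and a line at each list's median. The grey band holds the 10th to 90th percentile of all 15160 tested rows (-0.41 to 0.48), and most of the presomitic mesoderm list lies below 0.

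The number of called genes at this stage step depended on the variance model. With equal weights for EBs and embryos, Hes7 and Uncx kept their calls among the 8 tested genes, and the calls were 2 in the Notch list, 1 in the presomitic mesoderm list, 0 in the sclerotome list and 2 in the dermomyotome and myotome list, where 352 of all 15160 tested rows were called. Leaving out the first E8.0 pool left 5 calls in the Notch list, 7 in the presomitic mesoderm list and 1 in the sclerotome list. The sclerotome list also had 1 call without the second E8.0 pool or the first E9.0 pool, and the dermomyotome and myotome list 3 without the second E9.0 pool.

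In WT EBs at day 9, all 8 tested genes were called lower than in the mean of the WT embryo stages. Over all tested rows 20.3% were called lower and 23.9% higher. Hes7 and Uncx reached 1 FPKM in 0 and Meox1 and Pax1 in 1 of the 4 EB libraries, so these genes passed the filter through the embryos, where they are high, and the count supports nothing by itself. Markers of several other embryonic tissues were also called lower in WT EBs, with 8 of 9 for cardiac mesoderm and 6 of 6 for erythroid cells. Dorsal neural tube and neural crest had 8 of 12 lower, the pharyngeal pouch and arch 6 of 9 and neural progenitors 5 of 8. Not all tissues did so. Intermediate mesoderm had 3 of 7 lower, and neurogenic cells and early neurons 2 of 10 lower and 2 higher. Yolk sac endoderm had 0 of 7 lower and 1 higher, with 7 of 7 changes positive against the mean of the stages. Its summed markers were 366 and 348 FPKM in WT EBs, below the 538 and 877 at E8.0 and above the 44.4 and 20.1 at E9.0. For 7 of the 8 tested somite genes, both WT EB libraries lay below all 4 embryo libraries. That held for 29.6% of tested rows, and the reverse for 34.4%. Pax1 was the exception. This comparison uses the same embryo libraries as the stage comparison, and culture and material cannot be told apart in it.

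On the log2 scale Meox1 had the largest difference, with 1.32 and 0.845 FPKM in WT EBs against 22.1 to 31.4 in embryos, a log2 difference of -3.72 (SE 0.171, limma adjusted p = 7.65e-05). It was listed at 0 in both ESC libraries. Hes7 stood at 0.0331 and 0.0640 FPKM in WT EBs and was listed at 0 in ESCs, with a log2 difference of -1.34 (SE 0.180, limma adjusted p = 0.00177). Both genes were thus near or at the bottom of the scale in EBs and ESCs.

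Dll3 had 1.65 and 1.85 FPKM in WT EBs, little above its 1.09 and 1.36 in WT and KO ESCs, and its difference to embryos was -1.88 (SE 0.276, limma adjusted p = 0.00241). Tcf15 had 0.525 and 2.54 FPKM in WT EBs and 1.53 and 1.90 in ESCs, with a difference of -2.32 (SE 0.388, limma adjusted p = 0.00378). Uncx had 0.240 and 0.0227 FPKM in WT EBs, with a difference of -1.23 (SE 0.209, limma adjusted p = 0.00400). Ripply2, untested, was listed at 0 in both WT EB libraries and in both ESC libraries.

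Lfng and Pax3 had the highest means of the set in WT EBs, and both split the pair of libraries. Lfng had 12.9 and 3.53 FPKM, with a difference to embryos of -1.46 (SE 0.407, limma adjusted p = 0.0244), and Pax3 had 3.30 and 1.05 FPKM, with a difference of -1.68 (SE 0.397, limma adjusted p = 0.0134). Both calls were lost without the second WT EB library, at adjusted p of 0.310 and 0.187. Pax1 had 3.17 and 0.492 FPKM, on either side of its E8.0 level, and its difference of -0.96 (SE 0.329, limma adjusted p = 0.0484) was lost in 13 of 17 alternatives. Without the second WT EB library 4 of the 8 genes were still called. Without the first, 7 were, and Tcf15 had an adjusted p of 0.0527.

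In the related lists, 11 of 17 tested Notch genes were called lower and 1 higher, and 14 of 23 presomitic mesoderm genes lower and 1 higher. For sclerotome 5 of 12 and for dermomyotome and myotome 10 of 13 genes were called lower and 0 higher. Over all tested rows 20.3% were called lower and 23.9% higher. Several of these genes, among them Msgn1, Nkx3-2, Meox2, Dmrt2, Myf5, Myog and Alx4, reached 1 FPKM in no EB library. They passed the filter only through the embryos, where they are high, so the counts are descriptions. The medians were -0.64, -1.42, -0.72 and -1.03, against 0.05 over all rows. Msgn1, a master factor of presomitic mesoderm chosen after its values were seen, was listed at 0 in all 6 ESC and EB libraries. Aldh1a2, which makes retinoic acid in somites, had 0.599 and 0.755 FPKM in WT EBs against 19.7 to 44.1 in embryos. Snai1 differed by -2.28 and the WNT target Axin2 by -1.97. Fgf4, the 1 gene of its list that was higher, had 18.1 and 44.3 FPKM in WT EBs, 107 and 113 in ESCs and 0.340 to 1.59 in embryos. It is also expressed in pluripotent cells, whose 8 markers were all called higher in WT EBs.

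Among the other called genes, the sclerotome genes Foxc1, Sox9 and Pdgfra differed by -2.08, -2.26 and -1.33, and in the dermomyotome list Alx4, Meox2 and Dmrt2 by -1.69, -1.49 and -1.38. In the Notch list the ligand Dll1 differed by -1.80, Hey2 by -1.14 and the coactivator Maml1 by -0.80, and Rbpj, the DNA-binding factor of the pathway, was the 1 gene called higher, by 1.15. Without the second WT EB library the calls fell to 1 in the Notch list, 8 in the presomitic mesoderm list, 0 in the sclerotome list and 1 in the dermomyotome and myotome list. The Notch list had 6 calls without the first WT EB library, 7 without the second E9.0 pool and 6 with no filter, and the dermomyotome and myotome list had 6 without the first WT EB library.

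**Figure D4:**
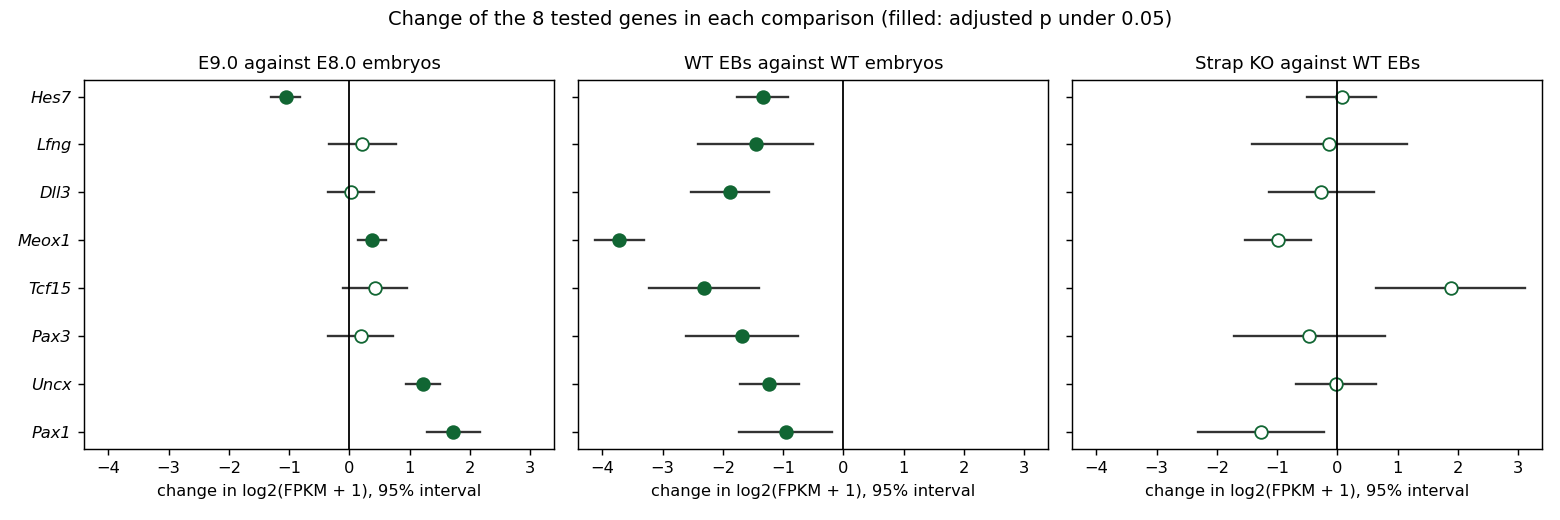
Change in log2(FPKM + 1) of the 8 tested genes with its 95% interval in 3 comparisons, on 1 common axis, with filled points for an adjusted p under 0.05. All 8 genes are called in WT EBs against embryos, 4 between the embryo stages and 0 between KO and WT EBs, where the intervals are wide.

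Loss of Strap in EBs gave no call among these genes. Of the 8 tested, 0 were called higher or lower (limma, with 3 at an unadjusted p under 0.05), and 0.0198% of all tested rows were called higher and 0.119% lower. Over all rows, 2094 of 15160 had an unadjusted p under 0.05. Meox1 and Pax1 were lower in both KO libraries than in both WT libraries and Tcf15 was higher in both. That is 2 and 1 of the 8, where 20.9% and 25.8% of all tested rows did the same. The question of the comparison is which genes respond to the loss of Strap during differentiation.

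Meox1 had 1.32 and 0.845 FPKM in WT EBs, 0.0894 in the first KO library and a listed 0 in the second. The log2 change was -0.99 (95% interval -1.53 to -0.45, limma adjusted p = 0.187), all of it at levels far under those of the embryo. It passed with a pseudocount of 0.1 (adjusted p = 0.0469), with equal weights (0.0374) and with a replicate block within EBs (0.0248), so that its call rests on the model. Over its 18 alternatives the adjusted p ran from 0.0248 to 0.995.

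Tcf15 went the opposite way, at 0.525 and 2.54 FPKM in the WT libraries but 4.81 and 11.5 in the KO libraries. The second KO library lay within the range of the E9.0 pools, and the log2 change was 1.88 (95% interval 0.65 to 3.10, limma adjusted p = 0.232). With the replicate block within EBs the adjusted p was 0.0159. Meox1, which accompanies Tcf15 in somites, was lower in these KO libraries than in WT EBs. The summed markers of pluripotent cells had the same order over the 4 EB libraries as Tcf15, with 479 and 1144 FPKM in WT and 1503 and 1977 in KO EBs. All 8 of these markers had a positive change and 0 were called. Tcf15 is also known in ESCs that are primed to differentiate. The WT and KO ESC libraries had 2416 and 2285 FPKM of these markers and 1.53 and 1.90 FPKM of Tcf15. The part of remaining pluripotent cells in the Tcf15 level was not tested.

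Pax1 had 3.17 and 0.492 FPKM in WT EBs, a listed 0 in the first KO library and 0.0734 in the second. The log2 change was -1.27 (95% interval -2.31 to -0.22, limma adjusted p = 0.293), and its size ran from -2.01 to -0.53 when 1 library was left out. Pax9, a paralog of Pax1 in sclerotome and pharyngeal pouches named here after its values were seen, had 4.75 and 2.75 FPKM in WT and 0.702 and 0.277 in KO EBs. Summed markers of the pharyngeal pouch and arch were 26.7 and 13.6 FPKM in WT and 10.0 and 5.91 in KO EBs, with 8 of 9 tested markers negative and 0 called. Summed cardiac mesoderm markers were 159 and 66.9 FPKM in WT and 8.28 and 5.88 in KO EBs, with 9 of 9 negative and 2, Isl1 and Tnnt2, called lower. Feeder fibroblast markers summed to 261 and 70.9 FPKM in WT and 38.9 and 32.3 in KO EBs, with 8 of 11 lower in both KO than in both WT libraries and 0 called. Many of these markers are genes of mesenchyme in general. Col3a1 gave the largest part of the WT sums, with 198 and 30.2 FPKM, but had 16.1 and 28.4 in the ESCs grown on feeders. The sum is therefore no measure of feeder cells alone. Whether the tissues of these marker sets carried the Pax1 or Meox1 signal was not tested.

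Lfng and Pax3 followed the replicate number more than the genotype. Lfng had 12.9 and 10.0 FPKM in the first WT and KO libraries and 3.53 and 3.74 in the second ones. Its log2 change between genotypes was -0.13 (95% interval -1.42 to 1.16). Pax3 had 3.30 and 2.70 FPKM in the first libraries and 1.05 and 0.244 in the second ones, with a change of -0.47 (95% interval -1.73 to 0.79). Summed neural progenitor markers split in the same way, at 60.5 and 68.5 FPKM against 20.7 and 13.0, whereas those of dorsal neural tube and neural crest were 36.5 and 46.4 FPKM against 39.9 and 33.4. The column names of the first WT and KO libraries begin with Lin and those of the second ones with LJ. What the replicate numbers or these names share is not given in the labels.

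Dll3 had 2.36 and 0.556 FPKM in KO EBs, around the 1.65 and 1.85 of WT EBs, with a change of -0.27 (95% interval -1.14 to 0.61). Hes7, at 0.149 and 0.0550 FPKM in KO EBs, and Uncx, at 0.179 and 0.0389, reached at most 0.149 and 0.240 FPKM in any ESC or EB library. Their intervals were -0.50 to 0.64 and -0.69 to 0.64. At such levels a loss could not be detected. Mesp2 had 0.123 and 0.207 FPKM in WT and 0.103 and 0.662 in KO EBs, and Ripply2 was above 0 in only 1 EB library, the first KO, at 0.171.

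The related lists held 0 calls between KO and WT EBs: 0 of 17 Notch genes, 0 of 23 presomitic mesoderm genes, 0 of 12 sclerotome genes and 0 of 13 dermomyotome and myotome genes (limma). Their median log2 changes were -0.08, -0.33, -0.51 and -0.16, against 0.01 over all rows. With the replicate block within EBs they held 2, 6, 4 and 2 calls, where 1329 of all 15160 tested rows were called. With equal weights they held 0, 1, 1 and 1, where 581 of all tested rows were called. In the ESC pair, with 1 library per genotype and no test, Tcf15, at 1.53 and 1.90 FPKM in WT and KO, was the highest of the 10 genes in each, and besides it only Dll3 reached 1 FPKM in both libraries.

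**Figure D5:**
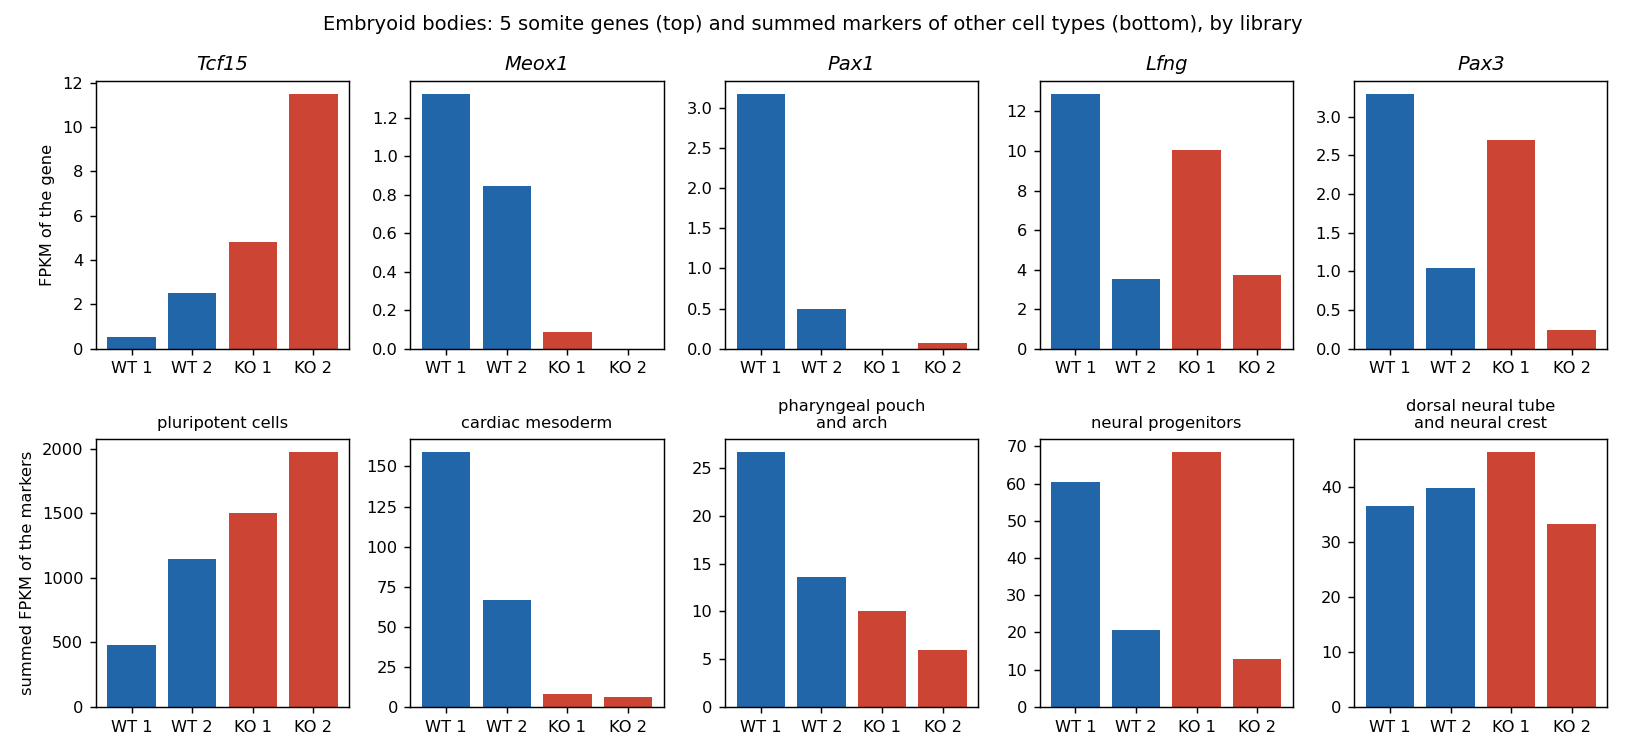
FPKM of 5 somite genes (top) and summed FPKM of markers of 5 other cell types (bottom) in the 2 WT (blue) and 2 KO (red) EB libraries, with bars from 0. Tcf15 rises in the order of the pluripotent sum, from 0.525 to 11.5 FPKM, Meox1 and Pax1 are low in both KO libraries like the cardiac sum, and Lfng and Pax3 split by replicate number like the neural progenitor sum.

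Over all 10 libraries the genes differed in what they moved with. Correlations of log2(FPKM + 1) are given as a description only, since the 10 points share their material: embryos are high and cultures low for most of these genes. Meox1 ran with Dll3 (Pearson r = 0.967) and Pax3 (0.926), Lfng with Pax3 (0.943) and Uncx with Pax1 (0.903), while Tcf15 reached at most 0.699, with Ripply2, and Mesp2 lay between -0.601 and 0.0235 with the other 9. Of 9750 candidate genes outside the set, those most like Hes7 were Cdx4 (0.995), Evx1os (0.993) and Hoxaas3 (0.986). Closest to Meox1 were Cxx1b (0.997), Sox18 (0.995) and Ets1 (0.995), and closest to Pax3 were Lix1 (0.998), Spsb4 (0.996) and Gtf2i (0.993). For Lfng they were Mtch1 (0.994), Plch1 (0.989) and Cdip1 (0.988), and for Dll3 Slc35a4 (0.988), Smarcb1 (0.987) and Ogfr (0.985). Uncx was nearest to Hba-a2 (0.978), Alx4 (0.978) and Nppa (0.977), and Pax1 to Ebf2 (0.978), S1pr3 (0.967) and Add2 (0.962). The nearest to Tcf15, Rnf187 (0.956), Rab1b (0.956) and Clic4 (0.954), were the least like their gene.

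Antisense neighbours could add reads only if strand was misread, as the authors' counting used the strand. Hes7 overlaps 9130213A22Rik by 2186 bases, Pax1 overlaps AI646519 by 869 bases and Meox1 overlaps Gm11551 by 4970 bases. The highest FPKM of these neighbours in any library was 0.302, 0.70 and 0.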

How the data were processed

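RNA-seq of ESCs, EBs and whole-embryo pools was analysed from 1 table of FPKM that the authors deposited. Per the labels and methods, adapter-trimmed reads were aligned to GRCm38 by the authors with STAR 2.5.2b, and FPKM were then estimated with Cufflinks 2.2.1 in a strand-aware mode. The labels and methods name different kits for ribosomal RNA depletion. Whether libraries were rescaled to one another is not given in the sources used here. FPKM are not counts, so limma 3.58.1 in R 4.3.3 was fitted to log2(FPKM + 1), two-sided, with 4 groups in 1 model, 1 variance weight for EBs and 1 for embryos (EB variance 5.47 times that of embryos), a trend on abundance and 4 residual degrees of freedom. An exact permutation test of 2 against 2 libraries cannot go below p = 0.333 and was not used. Gene loci came from the GENCODE annotation of GRCm38 and upstream sequences from RefSeq (GRCm38.p6).

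The text gives all 10 genes, up to 4 called genes with the lowest p of each related list, and for each tested gene the 3 genes most like it (Pearson r, single-name rows other than predicted genes, reaching 5 FPKM in 2 or more libraries). Some genes that this rule takes are not reported here. The genes, lists, weights and tests were chosen with earlier results of these data known. Of the lists, Mesp1 and Matn1 did not pass the filter, Foxc2 matched no row of its own, and 3 dermomyotome and myotome genes did not pass. The code was tested on simulated data. Alternatives were another pseudocount, other filters, quantile normalization, median scaling, equal weights, the libraries of a comparison alone, replicate blocks, robust moderation and leaving out each library. The replicate block within EBs was chosen after seeing the data.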

Additional observations from a re-analysis of the deposited data

How the results depend on the processing

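The 24 log2 changes of the 8 tested genes were recomputed under 16 to 18 alternatives each, as far as the gene passed the filter. Of these values, 369 kept their direction and their side of the threshold, 26 lost a call, 4 gained one and 11 changed sign, all 11 of values that were not called. Sign changes were for Uncx in KO EBs (0.10 with quantile normalization) and for Dll3 between stages (-0.0101 with quantile normalization and -0.0093 with median scaling). Without 1 library, the log2 change in KO EBs ran from -0.94 to 0.67 for Lfng, -0.82 to 0.29 for Dll3, -1.25 to 0.32 for Pax3 and -0.16 to 0.11 for Uncx, and between stages from -0.0744 to 0.13 for Dll3. The cause was not tested.

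Among the 8 genes in KO EBs, 1 was called with a pseudocount of 0.1, 1 with equal weights, 2 with the replicate block within EBs and 0 without any 1 library. Between stages, 2 of 6 tested were called with a filter of FPKM at least 5, 2 of 8 with equal weights and 3 to 4 without 1 library. In WT EBs against embryos, 5 of 6 were called with that filter and 4 to 7 without 1 library. Over all rows, the calls in KO EBs were 21, and 36 with a pseudocount of 0.1, 8 with no filter, 581 with equal weights, 2 with only the 4 EB libraries, 1329 with the replicate block within EBs and 8 to 18 without 1 library. Between stages 3910 rows were called, 352 with equal weights and 1438 to 3880 without 1 library. In WT EBs against embryos 6701 were called, and 1388 to 6389 without 1 library.

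Same-numbered EB libraries deviated together (r = 0.415 over rows), whereas those of the embryo stages did not (r = -0.03). The column names of the first EB pair begin with Lin and those of the second with LJ. What this marks is not given, and there are only 2 pairs. With a replicate block over all 8 libraries, 18 rows were called in KO EBs and 2966 between stages, and among the 8 genes the call of Pax1 in WT EBs against embryos was lost (adjusted p = 0.0572). Unknown depth and 2 libraries per group limit what low genes such as Mesp2, Ripply2, Hes7 and Uncx can show in EBs. Between stages the dermomyotome and myotome list had 3 calls with a pseudocount of 0.1 and 1 with a filter of FPKM at least 5, and the sclerotome list 1 with that filter or with no filter and 6 with only the 4 embryo libraries. In WT EBs against embryos these lists had 5 and 3 calls with that filter.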
